A study of Mus musculus with 9 samples.

Results

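The genes of 6 enzyme families that modify foreign compounds and steroids were followed in mouse liver: cytochromes P450 (Cyp), UDP-glucuronosyltransferases (Ugt), glutathione S-transferases (Gst), sulfotransferases (Sult), carboxylesterases (Ces) and flavin-containing monooxygenases (Fmo). Members were chosen by gene symbol and by a mean of at least 1 TPM over 9 libraries. Of the 5608 genes listed in the expression table, 16 carried a matching name once Cyp51, an enzyme of cholesterol synthesis, had been left out by the rule. Of these, 13 reached the mean and 3 did not. The lowest member inside the limit was Cyp46a1 with a mean of 1.5 TPM, and the highest outside it was Cyp1b1 with 0.274 TPM. Cyp46a1 passed only through the IF and FMD groups, since its FED mean was below 1 TPM, and so had to differ between groups. The members were 2 Cyp, 5 Gst, 3 Ces, 1 Fmo, 1 Sult and 1 Ugt genes, so a statement on a family rests on few of its genes. Family genes outside the table were not analysed here.

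Liver RNA from 9 wild-type C57BL/6 J mice had been sequenced, 3 in each of 3 groups. FED mice ate standard diet without restriction. IF mice were fasted intermittently, with food withheld for 24 h on 2 occasions and free feeding in between, and FMD mice received a fasting-mimicking diet, a purchased low-calorie diet, for 3 days. Livers were taken the day after the second fast or the last day on the diet. Age and sex of the mice were not given in the sources used here, and the diet groups differed in both regimen and food. Values are TPM, a transcript abundance that the authors normalised for transcript length and library total, so levels may be compared between genes. FED and IF replicates carry the numbers 1 to 3 and FMD replicates 1, 2 and 4, and values are always given in that order. In whole liver, fewer cells of a type and less RNA per cell cannot be told apart.

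Enzymes of the first phase, the P450s, flavin-containing monooxygenases and carboxylesterases, introduce or uncover a reactive group by oxidation or hydrolysis. Enzymes of the second phase then attach glutathione, glucuronic acid or sulfate, which makes the product easier to excrete. The liver is the main site of both phases, many of the same enzymes also handle steroids, bile acids and lipids, and their genes often lie in tandem clusters of near-identical copies.

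In IF vs FED livers, the monooxygenase Fmo1, the omega-class transferase Gsto1 and the cholesterol hydroxylase Cyp46a1 rose, while the sulfotransferase Sult5a1 and the P450 Cyp2f2 fell. A gene was called changed at an adjusted p under 0.05 in limma and a change of more than 1.5-fold in either direction on the log2(TPM + 1) scale. Calls were made for 38.5% of the 13 members, 3 of them higher and 2 lower, against 11.9% of all 4665 genes tested (10.3% higher and 1.59% lower). In livers of FMD vs FED mice, Fmo1, Gsto1 and Cyp46a1 rose again, and Sult5a1, Gstm2, Ces2e and Cyp2f2 fell. These 3 higher and 4 lower members made 53.8% of the 13, against a background of 37.1% (35.5% higher and 1.59% lower). The background is one-sided, with 91.4% of the genes tested above 0 in FMD vs FED and 81.1% in IF vs FED. The paper reported similar numbers of higher and lower genes for each diet, so this background holds for the listed genes only. Cyp46a1 is counted as higher in both diets. It became a member only through the IF and FMD groups, so its calls lend these shares no support. Between FMD and IF, 2 members, Ces2e and Sult5a1, were lower in FMD and none was higher by the same test, against 5.14% of all genes called (4.67% higher and 0.472% lower). At an unadjusted p under 0.05 in this comparison, 1 member (Gstm5) was higher and 6 were lower. The share of all genes at this limit is not given here, so these 2 counts cannot be set against a background. The diet comparisons share the FED libraries, so their values are set side by side and their likeness is not tested.

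Over all genes tested, the median log2 fold change was 0.48 in FMD vs FED, and it was 0.24 both in FMD vs IF and in IF vs FED. The medians of the 13 members in the same order were -0.17, -0.50 and 0.17, and 10, 12 and 8 of the 13 lay below the median of all genes. After median ratio scaling, which divides a library by its median ratio to an average library (scaled values), the calls were 2 higher and 2 lower in IF vs FED, 0 higher and 5 lower in FMD vs FED, and 0 higher and 3 lower in FMD vs IF. The scaled background was 7.14% of all genes in IF vs FED (3.69% higher and 3.45% lower), 11.1% in FMD vs FED (5.49% and 5.64%) and 2.23% in FMD vs IF (1.11% and 1.11%). The rises of Fmo1, Gsto1 and Cyp46a1 in FMD were therefore called as deposited and not after scaling, whereas the falls of Sult5a1, Gstm2, Ces2e and Cyp2f2 were called both ways. Libraries were divided by 0.8151 to 0.8435 in FED and by 1.0926 to 1.4282 in FMD. Scaling thus moved FMD vs FED values down, so falls grew and rises shrank. A fall that stays called after scaling therefore gains little support from it. When FMD replicate 1 was also left out of the scaled values, Fmo1 (0.74, adjusted p = 0.00289) and Cyp46a1 (0.92, adjusted p = 0.00364) were called higher in FMD vs FED, and Gsto1 (0.26) was not.

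**Figure D1:**
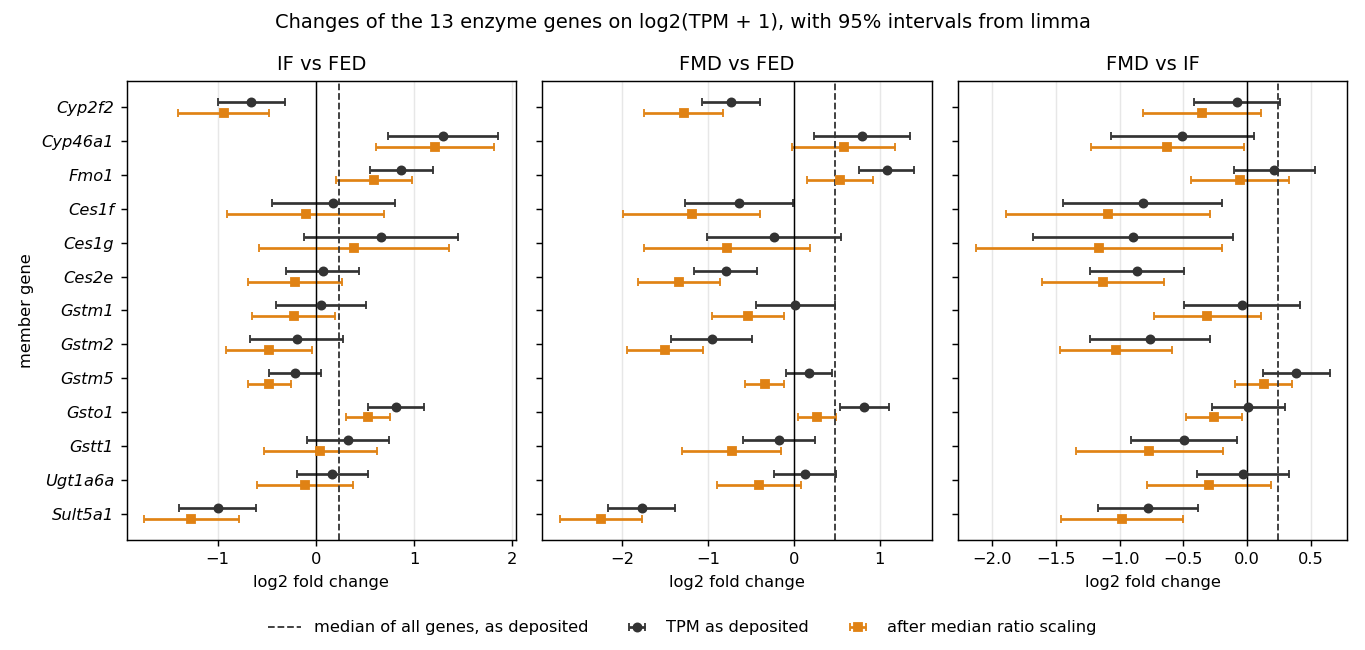
Log2 fold change on log2(TPM + 1) of the 13 members (x axis) by gene (y axis) in 3 comparisons; circles are TPM as deposited, squares are scaled values, bars are 95% intervals from limma with 3 mice per group, and the dashed line is the median of all genes as deposited. Sult5a1 lies farthest to the left in both diet comparisons, at -1.0 and -1.78, and in FMD vs IF 12 of 13 members lie left of the dashed line.

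The levels of the members spanned a wide range on the TPM scale. Gstm1, a mu-class transferase, had the highest mean over all libraries with 1360.2 TPM, followed by Cyp2f2 with 1171 TPM. Gstt1, Ces1f, Gsto1, Fmo1, Ces1g and Ces2e lay between 347 and 102 TPM, and Gstm2, Ugt1a6a, Gstm5 and Sult5a1 between 66.4 and 9.64 TPM. The order at the top was not the same in each group. Cyp2f2 lay above Gstm1 in all 3 FED mice and below it in all 3 IF mice, and in FMD it was below in replicates 1 and 4 and above in replicate 2. The 13 members together made 1.47% ± 0.0487 (SD, n = 3) of the listed TPM in FED livers, 1.14% ± 0.0496 in IF livers and 0.926% ± 0.208 in FMD livers. The listed TPM itself was 26.3 to 29.3% of a library in FED and 34.9 to 43.0% in FMD. As summed TPM the members stood at 4086 ± 109, 3888 ± 178 and 3481 ± 528. FMD replicate 4, at 4065, lay within the FED range of 4006 to 4210. The 2 Cyp genes summed to 1568 ± 141, 997 ± 81.7 and 953 ± 187 TPM in the FED, IF and FMD groups, or 0.561%, 0.293% and 0.256% of the listed TPM. The 5 Gst genes summed to 1859 ± 41.2, 2074 ± 125 and 1945 ± 429 TPM, while their share of the listed TPM was 0.667%, 0.609% and 0.512%, so the order of the groups depends on the measure.

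**Figure D2:**
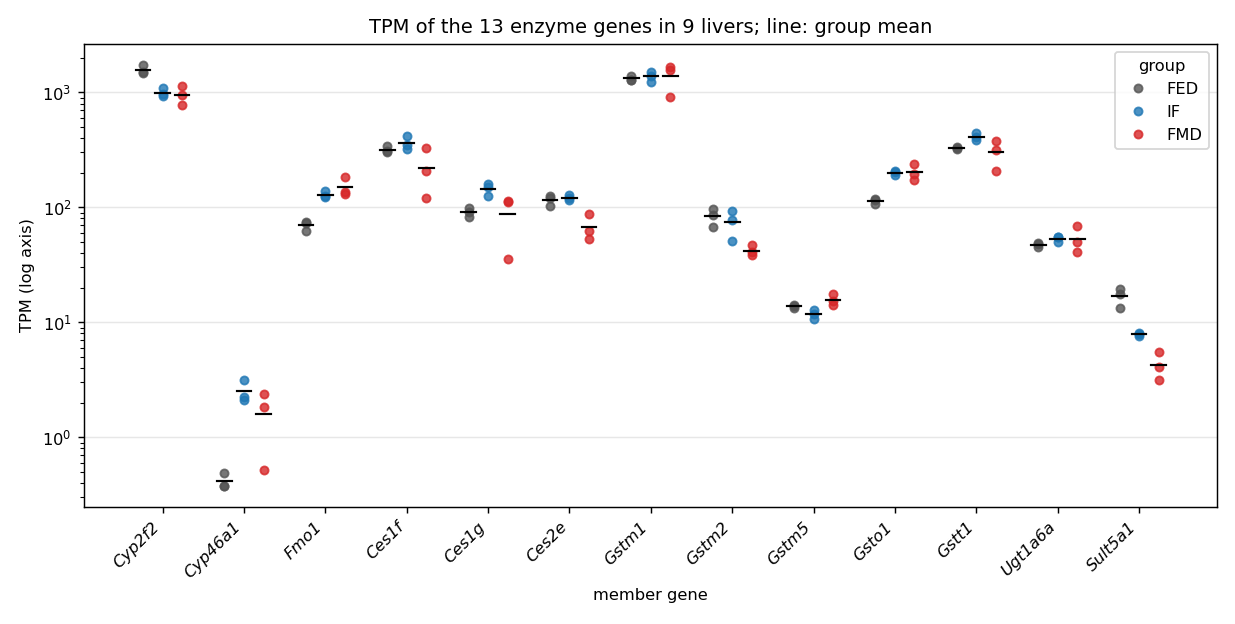
TPM on a log axis (y) for each of the 13 member genes (x); each point is 1 liver, coloured by group, and the line is the mean of the 3 mice. The FED points lie above all IF and FMD points for Cyp2f2 and Sult5a1 and below them for Cyp46a1, Fmo1 and Gsto1.

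Cyp2f2 (NCBI gene 13107), a P450 known for activating naphthalene, was the most abundant oxidase of the set. It stood at 1729, 1498 and 1475 TPM in FED mice, 1087, 964 and 932 TPM in IF mice and 770.4, 942 and 1143 TPM in FMD mice. All IF and FMD livers were below the lowest FED liver, and the IF and FMD ranges overlapped. The group means were 1568 ± 141, 994 ± 82.1 and 952 ± 186 TPM (SD, n = 3 each). Its log2 fold change was -0.66 ± 0.15 (SE, n = 3 per group, adjusted p = 0.0129) in IF vs FED. For FMD vs FED it was -0.73 ± 0.15 (SE, n = 3 per group, adjusted p = 0.00288). The IF fall missed the call when FED replicate 1 (-0.58, adjusted p = 0.0583) or IF replicate 2 (-0.63, adjusted p = 0.0571) was left out. FMD did not pass the test against IF, with a difference of -0.08 and a 95% interval of -0.42 to 0.26.

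The start region of Cyp2f2 is shown because, with that of Sult5a1, it belongs to a member that fell in both diets. RefSeq on the mouse build GRCm38.p6 gave a window from 250 bases before to 50 bases after the start site for 11 of the 13 members. Fmo1 and Ces1f were not matched. Each window was searched on both strands for 6 motifs: the dioxin response core GCGTG (XRE), the antioxidant response element TGANNNNGC (ARE), the E-box CACGTG, the D-box TTANGTAA, the HNF4 element CAAAGTCCA, and 2 copies of AGGTCA set 1 base apart with at most 1 mismatch (DR1). Windows are written 5′ to 3′ on the strand of the gene. Capitals below mark matches to any of these, and a window with no capitals holds none of them.
Cyp2f2, chr7:27119705-27120004, plus strand:
Cyp2f2: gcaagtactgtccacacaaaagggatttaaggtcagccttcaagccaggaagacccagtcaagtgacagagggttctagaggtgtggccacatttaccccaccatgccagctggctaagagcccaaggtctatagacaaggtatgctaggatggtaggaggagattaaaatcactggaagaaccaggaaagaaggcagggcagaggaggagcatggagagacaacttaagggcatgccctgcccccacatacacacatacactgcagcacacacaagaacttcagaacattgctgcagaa

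Cyp46a1 (NCBI gene 13116), the enzyme that hydroxylates cholesterol for export from the brain, was the least abundant member. It stood at 0.49, 0.38 and 0.38 TPM in FED mice, 2.13, 2.23 and 3.17 TPM in IF mice and 0.52, 1.85 and 2.39 TPM in FMD mice. All IF livers were above 2 TPM and all FED livers below 0.5 TPM, and FMD replicate 1 lay close to the FED mice. The FED, IF and FMD means were 0.417 ± 0.0635, 2.51 ± 0.574 and 1.59 ± 0.962 TPM (SD, n = 3 each), a ratio of means of 6.02 for IF vs FED. The added pseudocount of 1 TPM compresses this to a log2 fold change of 1.30 ± 0.25 (SE, n = 3 per group, adjusted p = 0.0058). FMD vs FED gave 0.79 ± 0.25 (SE, n = 3 per group, adjusted p = 0.0191). Without FMD replicate 1 the FMD value was 1.13 (adjusted p = 0.000351), and the call was lost when FMD replicate 2, FMD replicate 4, FED replicate 2 or FED replicate 3 was left out (adjusted p between 0.0503 and 0.0616). Scaled, it was 0.58 with an adjusted p of 0.151. Cyp46a1 was also the only one of 7 bile acid synthesis genes on a prepared list that the table held.

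Its start region is shown because it differs in make-up from those of the members that fell. It is 70.3% G and C, against 44.7 to 54.7% for Cyp2f2, Sult5a1, Gstm2 and Ces2e, and it holds 4 copies of GCGTG, in capitals, with first bases at -190, -120, -89 and -24 relative to the start site. The window of Gsto1, which also rose, is 60.7% G and C and holds none of the 6 motifs. At least 1 copy of GCGTG occurs in 32.4% of all 32851 RefSeq start regions searched.
Cyp46a1, chr12:108334066-108334365, plus strand:
Cyp46a1: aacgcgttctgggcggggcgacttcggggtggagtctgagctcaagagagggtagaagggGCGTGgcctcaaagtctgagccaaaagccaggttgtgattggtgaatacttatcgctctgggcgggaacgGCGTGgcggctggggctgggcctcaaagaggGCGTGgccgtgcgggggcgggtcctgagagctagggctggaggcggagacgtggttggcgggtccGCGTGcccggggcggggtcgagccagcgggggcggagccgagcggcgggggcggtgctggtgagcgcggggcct

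Fmo1 (NCBI gene 14261), a monooxygenase that adds oxygen to nitrogen and sulfur atoms of drugs, rose in both diets. It stood at 62.7, 74.9 and 72.6 TPM in FED mice, 138, 125 and 123 TPM in IF mice and 132, 185 and 136 TPM in FMD mice. All 6 diet livers were above the highest FED liver, and the IF and FMD ranges overlapped. The log2 fold change was 0.87 ± 0.14 (SE, n = 3 per group, adjusted p = 0.00263) in IF vs FED. For FMD vs FED it was 1.08 ± 0.14 (SE, n = 3 per group, adjusted p = 0.000337). Scaled, these values were 0.59 (adjusted p = 0.0488) and 0.54 (adjusted p = 0.0534), so the first stayed just inside the limits and the second did not. FMD vs IF gave 0.22 with a 95% interval of -0.10 to 0.53, and no start region was matched for this gene.

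Of the 3 carboxylesterases, which hydrolyse ester drugs and lipids, only Ces2e was called in any comparison with TPM as deposited. Ces2e (NCBI gene 234673) stood at 126, 119.8 and 103 TPM in FED mice, 116, 121 and 128 TPM in IF mice and 53.6, 86.9 and 62.5 TPM in FMD mice. The 3 FMD livers were below all other livers, while the FED and IF livers overlapped. FMD vs FED was -0.80 ± 0.17 (SE, n = 3 per group, adjusted p = 0.00294) and FMD vs IF was -0.86 ± 0.17 (SE, n = 3 per group, adjusted p = 0.0219). IF vs FED was 0.07, with a 95% interval of -0.30 to 0.44. The FMD vs IF call was lost when any 1 of the 3 IF libraries was left out (adjusted p = 0.0756, 0.0893 and 0.0911).

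Ces1f and Ces1g, neighbours in a run of 9 Ces genes on chromosome 8, varied widely within the FMD group. Ces1f (NCBI gene 234564) stood at 302, 309.6 and 341 TPM in FED mice, 346, 319.9 and 417 TPM in IF mice and 121, 207 and 331 TPM in FMD mice. Ces1g (NCBI gene 12623), an esterase tied to lipid handling in the liver, stood at 91.4, 99.6 and 82.2 TPM in FED mice, 150.2, 125 and 161 TPM in IF mice and 35.9, 114 and 112 TPM in FMD mice. For both genes FMD replicate 1 was the lowest of the 9 livers, and the SD within FMD came to 48.1% of the mean for Ces1f and 51.0% for Ces1g, against 6.49% and 9.52% in FED. FMD vs FED gave -0.64 ± 0.28 (SE, n = 3 per group, adjusted p = 0.064) for Ces1f, which was called after scaling (-1.19, adjusted p = 0.0413), and -0.23 ± 0.36 (SE, n = 3 per group, adjusted p = 0.566) for Ces1g. Without FMD replicate 1 these values were -0.27 (adjusted p = 0.209) and 0.31 (adjusted p = 0.0499), so the sign for Ces1g rests on that library. IF vs FED was 0.67 for Ces1g (adjusted p = 0.187), with all IF livers above all FED livers, and the same fold passed with an adjusted p of 0.0017 in the fit without FMD replicate 1. For Ces1f, IF vs FED was 0.18 with a 95% interval of -0.45 to 0.80.

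Of the 5 glutathione S-transferases, Gsto1 rose in both diets and Gstm2 fell in FMD. Gsto1 (NCBI gene 14873), an omega-class enzyme that reduces rather than conjugates many of its substrates, stood at 118, 115 and 108 TPM in FED mice, 205, 191 and 203 TPM in IF mice and 240.0, 173 and 195 TPM in FMD mice. All diet livers were above all FED livers, and FMD and IF overlapped. IF vs FED was 0.81 ± 0.13 (SE, n = 3 per group, adjusted p = 0.00206) and FMD vs FED 0.82 ± 0.13 (SE, n = 3 per group, adjusted p = 0.000735). After scaling the values were 0.53 (adjusted p = 0.00809), under the fold limit, and 0.27 (adjusted p = 0.0806).

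Gstm2 (NCBI gene 14863), a mu-class transferase, was the transferase that fell. It stood at 85.6, 97.1 and 67.1 TPM in FED mice, 78.0, 93.1 and 50.6 TPM in IF mice and 46.8, 41.0 and 38.2 TPM in FMD mice. The 3 FMD livers were below all FED and IF livers, and FED and IF overlapped. FMD vs FED was -0.96 ± 0.21 (SE, n = 3 per group, adjusted p = 0.00375). FMD vs IF was -0.76 (adjusted p = 0.053), which passed after scaling with -1.03 (adjusted p = 0.0257), and IF vs FED was -0.20 (adjusted p = 0.507).

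Gstm1 (NCBI gene 14862), the mu-class gene next to Gstm2 in a run of 7 Gstm genes on chromosome 3, stood at 1290.0, 1279 and 1394 TPM in FED mice, 1512, 1384 and 1232 TPM in IF mice and 1669.7, 905 and 1576 TPM in FMD mice. The groups overlapped, and the FMD mice held both the highest and the lowest of the 9 values. FMD vs FED was 0.02 with a 95% interval of -0.44 to 0.47, and its scaled value had the other sign, -0.54 (adjusted p = 0.0714). Gstm5 (NCBI gene 14866), the third mu-class member, which the naming rule did not select, lay between 10.7 and 17.8 TPM in the 9 livers. FMD vs FED was 0.18 as deposited and -0.34 scaled. Gstt1 (NCBI gene 14871), a theta-class transferase, stood at 325, 335 and 324 TPM in FED mice, 382, 411 and 443 TPM in IF mice and 206, 315 and 379 TPM in FMD mice. The 3 IF livers were above all FED and FMD livers, yet IF vs FED at 0.33 (adjusted p = 0.223) and FMD vs IF at -0.50 (adjusted p = 0.1) did not pass. Scaled, the IF and FED livers overlapped, with IF vs FED at 0.05 (adjusted p = 0.934). FMD vs IF was then -0.77 (adjusted p = 0.115).

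The start regions of the neighbours Gstm1 and Gstm2 are shown together because Gstm2 fell in FMD and Gstm1 was not called. RefSeq lists 2 start sites for Gstm1, of which the first is given. It holds 1 copy of GCGTG, in capitals, with its first base at -76, and the Gstm2 window holds none of the 6 motifs.
Gstm1, chr3:108017924-108018223, minus strand:
Gstm1: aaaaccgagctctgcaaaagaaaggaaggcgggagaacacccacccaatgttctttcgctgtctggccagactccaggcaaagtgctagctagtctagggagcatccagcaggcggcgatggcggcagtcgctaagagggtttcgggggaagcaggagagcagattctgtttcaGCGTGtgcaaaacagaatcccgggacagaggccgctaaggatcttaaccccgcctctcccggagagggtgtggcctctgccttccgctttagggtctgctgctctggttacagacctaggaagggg
Gstm2, chr3:107986371-107986670, minus strand:
Gstm2: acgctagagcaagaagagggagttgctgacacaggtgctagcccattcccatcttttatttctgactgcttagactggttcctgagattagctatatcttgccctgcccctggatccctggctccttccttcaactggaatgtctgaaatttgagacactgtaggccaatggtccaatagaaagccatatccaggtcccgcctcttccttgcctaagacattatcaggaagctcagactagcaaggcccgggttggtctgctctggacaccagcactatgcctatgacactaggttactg

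Sult5a1 (NCBI gene 57429), a sulfotransferase of the second phase, had the largest fall of the 13 members in both diet comparisons. It stood at 17.6, 19.5 and 13.4 TPM in FED mice, 7.84, 7.53 and 8.13 TPM in IF mice and 3.14, 4.05 and 5.54 TPM in FMD mice. The 3 groups did not overlap, with FED highest and FMD lowest. The means were 16.9 ± 3.11, 7.83 ± 0.300 and 4.24 ± 1.21 TPM (SD, n = 3 each), so FMD was at 0.252 of the FED mean. IF vs FED was -1.0 ± 0.18 (SE, n = 3 per group, adjusted p = 0.00379) and FMD vs FED -1.78 ± 0.18 (SE, n = 3 per group, adjusted p = 7.04e-05). Only 0.171% of all genes tested had a lower FMD vs FED value. FMD vs IF was -0.78 ± 0.18 (SE, n = 3 per group, adjusted p = 0.0336). That last call was lost when FED replicate 1 or 2, any IF replicate or FMD replicate 2 was left out, with adjusted p between 0.0505 and 0.123.

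Like Cyp46a1 and unlike the other members, Sult5a1 has no family neighbour on the chromosome. Its start region, shown as that of the member with the largest fall, holds none of the 6 motifs, as was found for Cyp2f2, Gstm2, Ces2e and Gsto1.
Sult5a1, chr8:123158231-123158530, minus strand:
Sult5a1: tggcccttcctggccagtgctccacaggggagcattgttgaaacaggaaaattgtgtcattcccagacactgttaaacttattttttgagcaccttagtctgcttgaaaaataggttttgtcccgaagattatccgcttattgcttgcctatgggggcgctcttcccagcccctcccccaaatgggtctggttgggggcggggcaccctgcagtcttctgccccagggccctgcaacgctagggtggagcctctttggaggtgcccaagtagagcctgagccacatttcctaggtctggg

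Ugt1a6a (NCBI gene 94284), which conjugates small phenols with glucuronic acid, stood at 48.5, 44.9 and 48.4 TPM in FED mice, 55.3, 49.5 and 54.8 TPM in IF mice and 40.9, 49.8 and 68.1 TPM in FMD mice. FMD replicate 1 was the lowest and FMD replicate 4 the highest of the 9. No comparison was called, and the 95% interval of the log2 fold change was -0.20 to 0.53 for IF and -0.23 to 0.49 for FMD, each against FED. Of the 50-base windows in its annotated transcripts, 52.1% also occur in another gene, nearly all in Ugt1a7c, because the Ugt1a genes share their last exons. How reads were assigned there is not given in the sources used here, so the value is uncertain. The next highest share was 18.9% for Gstm1, chiefly with the pseudogene Gstm2-ps1. It was 5.65% or less for the others, and 0 for Cyp2f2, Cyp46a1, Gstm5, Gstt1 and Gsto1.

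Among all members with a start region, GCGTG was found in 3 of 11, the ARE letters in 4 (Gstm5, Gstt1, Ces1g and Ugt1a6a, against 41.3% of all start regions) and the D-box in 1 (Ces1g, against 2.32%). The E-box, HNF4 and DR1 letters were in none, and occur in 7.15%, 0.475% and 0.554% of all start regions. These matches describe the letters in a window and say nothing of binding.

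Ratios of members within a liver do not depend on how a library is scaled, so they are given beside the fold changes. The ratio of Gstm1 to its neighbour Gstm2 was 15.1, 13.2 and 20.8 in FED, 19.4, 14.9 and 24.3 in IF and 35.7, 22.1 and 41.3 in FMD. FED and IF overlapped, as did IF and FMD, and the FMD livers lay above all FED livers. The ratio of Fmo1 to Cyp2f2, 2 oxidases that moved in opposite directions, was 0.0451 ± 0.00770 in FED, 0.129 ± 0.00231 in IF and 0.162 ± 0.0392 in FMD (SD, n = 3 each). All diet livers, at 0.119 or more, were above the highest FED liver at 0.050. The ratio of Gsto1 to Gstm2 was 1.39 ± 0.210, 2.90 ± 1.01 and 4.83 ± 0.516 in FED, IF and FMD, and the 3 groups did not overlap. For Cyp2f2 to Sult5a1 it was 94.9 ± 16.8, 127 ± 12.1 and 228 ± 19.9, again with no overlap, so Sult5a1 was lower relative to Cyp2f2 in both diets. The pairs were chosen with the members' changes known. In 2 further pairs of carboxylesterases, Ces1f to Ces2e was 2.77 ± 0.494, 2.97 ± 0.313 and 3.31 ± 1.72, with all groups overlapping. Ces1g to Ces1f was 0.289 ± 0.0420, 0.404 ± 0.0268 and 0.394 ± 0.134, where the FMD livers overlapped both other groups.

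**Figure D3:**
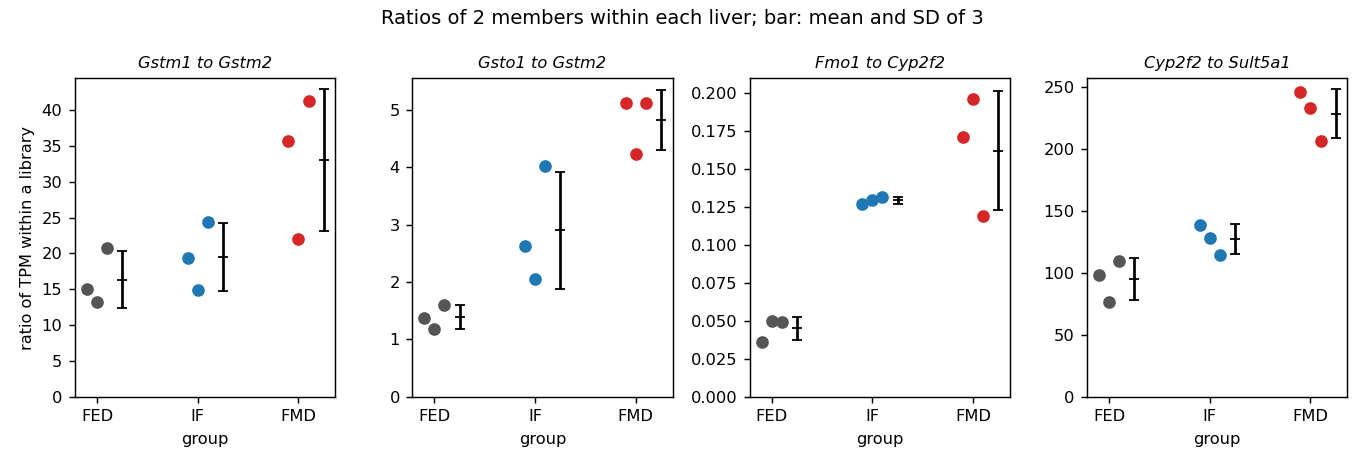
Ratio of the TPM of 2 members within each library (y axis) by group (x axis) for 4 of the 6 pairs computed; points are livers and the bar is the mean with the SD of 3 livers. For Fmo1 to Cyp2f2 all FED livers are at 0.050 or below and all diet livers at 0.119 or above, and for Gsto1 to Gstm2 the 3 groups do not overlap.

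In FMD vs IF, 7 of the 13 members ranked near the bottom of all genes tested. By the rank of the log2 fold change as deposited, Ces1g, Ces2e, Ces1f, Sult5a1 and Gstm2 had few of the genes tested below them (0.257, 0.300, 0.343, 0.386 and 0.429%), and Cyp46a1 and Gstt1 had 1.24 and 1.35%. Their log2 fold changes ran from -0.90 to -0.50, and of the 7 only Ces2e and Sult5a1 passed the test. All 7 passed when FMD replicate 4 was left out, and, as deposited, 0 of the 13 members passed when any 1 of the 3 IF libraries was. Without FMD replicate 1, Ces1g (-0.35), Ces1f (-0.45), Cyp46a1 (-0.16) and Gstt1 (-0.25) were smaller in size and not called. Ces2e (-0.71) and Sult5a1 (-0.62) were still called in that fit, and Gstm2 was -0.84 (adjusted p = 0.0583). The livers of the 2 diets did not overlap for 5 members that were lower in FMD (Ces1g, Ces2e, Gstm2, Gstt1 and Sult5a1), against 3.04% of all genes, and for 1 that was higher (Gstm5), against 33.6%. After scaling 7 members were lower without overlap and 0 higher, against 13.6% and 12.7%.

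In FMD vs FED the groups did not overlap for 4 lower members, against 2.62% of all genes, and for 4 higher members, against 68%. Scaled, these were 8 lower and 2 higher members, against 18.2% and 18.5%. In IF vs FED they were 3 lower and 6 higher, against 6.77% and 53.8%, and scaled 4 and 4, against 23% and 23.2%.

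FMD replicate 1 stood apart from the other libraries. It held the highest of the 9 values at 65.8% of all genes tested, and its listed TPM summed to 43.0% of the whole TPM of a library, against 26.3 to 36.3% elsewhere. For the members it was the reverse: this liver was the lowest of the 9 for 7 of 13 members (53.8%), against 2.64% of all genes, and the highest for 3. After scaling it was the lowest for 9 members (69.2%), against 21.0% of all genes. Without it, Sult5a1 (-1.62), Gstm2 (-1.04), Ces2e (-0.64) and Cyp2f2 (-0.59) were still called lower in FMD vs FED, and Cyp46a1 (1.13), Fmo1 (1.17) and Gsto1 (0.70) higher. Cd68, a macrophage marker, reached 64.0 TPM in this liver, while FMD replicates 2 and 4 had 12.2 and 5.75 TPM and the FED and IF livers 3.14 to 10.4 TPM. Its part in the members' values was not tested.

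**Figure D4:**
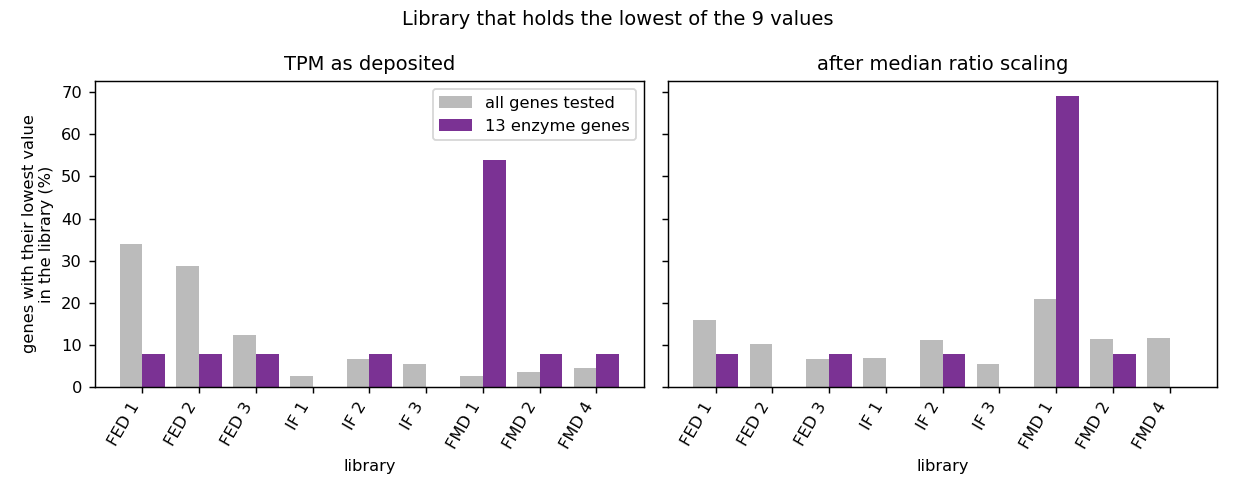
Share in percent (y axis) of the 4665 genes tested (grey) and of the 13 members (purple) that had their lowest value in each of the 9 libraries (x axis), as deposited and after scaling. FMD replicate 1 holds the lowest value of 53.8% of the members as deposited and 69.2% scaled, against 2.64% and 21.0% of all genes.

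None of 12 hepatocyte markers was in the table, so the liver label could not be checked with them, and 0 of the lymphocyte, neutrophil, erythroid and adipocyte markers were there. Of 11 Kupffer cell markers 1 was listed (Cd68, with 6.35 to 10.4, 3.14 to 5.99 and 5.75 to 64.0 TPM in FED, IF and FMD livers), and no listed marker was at 0. The sinusoidal endothelial list had 1 of 9 (Oit3, 6.58 to 9.28, 6.35 to 8.02 and 8.85 to 17.2 TPM), called higher in FMD against both other groups as deposited but not after scaling (0.22, adjusted p = 0.434, against FED and 0.57, adjusted p = 0.108, against IF). The stellate list had 3 of 9, with sums of 66.6 to 93.8, 122 to 159.6 and 107 to 217 TPM that came mostly from Dcn. Dcn was called higher in both diets as deposited but not after scaling (0.58, adjusted p = 0.0621, in IF and 0.35, adjusted p = 0.199, in FMD). Col1a1 and Pdgfrb were not called. As deposited they were -0.22 and -0.05 in FMD vs FED, opposite in sign to Dcn, and -0.13 and 0.15 in IF vs FED. The cholangiocyte list had 1 of 5 (Krt19, 0.76 to 1.78, 1.02 to 2.06 and 1.22 to 4.07 TPM) and the exocrine pancreas list 1 of 5 (Cela1, 23.8 to 30.0, 5.78 to 7.57 and 3.23 to 4.17 TPM), which fell in both diets as Sult5a1 did. The part of these cells in the members' values was not tested.

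Among proteins that serve these enzymes, Por, Cpox and Alas1 were called higher in both diets. Of 33 listed cofactor and partner genes, 21 were tested. Each diet had 5 called higher and 1 lower than FED, and FMD vs IF had 2 and 0. Of all genes tested, 10.3% were called higher and 1.59% lower in IF vs FED, and 35.5% and 1.59% in FMD vs FED. For FMD vs IF these shares were 4.67% and 0.472%. Scaled, the counts were 3 and 3 for IF, 2 and 4 for FMD, and 1 and 0 for FMD vs IF. Por, the reductase that hands electrons to microsomal P450s, stood at 74.5, 97.9 and 104 TPM in FED mice, 329, 400.3 and 256 TPM in IF mice and 643, 795 and 502 TPM in FMD mice. The 3 groups did not overlap, and Por rose by 1.81 (adjusted p = 0.000401) in IF and 2.79 (adjusted p = 1.46e-05) in FMD on the log2 scale, opposite in sign to Cyp2f2. Cpox, an enzyme of heme synthesis, rose by 1.22 and 1.09, the second not called after scaling (0.54, adjusted p = 0.0578). Alas1, the first enzyme of heme synthesis, rose by 2.64 (adjusted p = 0.0029) and 2.38 (adjusted p = 0.00181), both also called after scaling (2.37 and 1.83), and is outside the naming rule, chosen after its values were seen. Pgrmc2, a heme-binding partner of P450s, rose by 0.65 in IF, and Hmox1, which degrades heme, by 1.04 in FMD vs FED and 1.49 in FMD vs IF. The rise of Pgrmc2 (0.38) and the FMD vs FED rise of Hmox1 (0.51) were under the fold limit after scaling.

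Of 52 other enzymes of both phases, 10 were tested, with 4 called higher and 1 lower in IF vs FED (scaled 2 and 1), 5 and 2 in FMD vs FED (2 and 2) and 1 and 0 in FMD vs IF (0 and 1). The shares of all genes called higher and lower, as deposited and in the same order, were 10.3% and 1.59%, 35.5% and 1.59%, and 4.67% and 0.472%. Cbr1, a carbonyl reductase, rose by 1.59 in IF and 2.10 in FMD. Mgst3, a membrane-bound glutathione transferase outside the Gst symbols, rose by 1.66 in FMD vs FED and 0.76 in FMD vs IF, and the second was not called after scaling (0.50, adjusted p = 0.109). Arsa, which removes sulfate groups, rose by 0.83 in IF and 0.95 in FMD, and neither passed the fold limit after scaling (0.56 and 0.42). Of 22 transporters 1 was tested, the export pump Abcc4, at 0.34, 0.3 and 0.47 TPM in FED mice, 1.04, 0.89 and 0.66 TPM in IF mice and 4.65, 0.94 and 0.68 TPM in FMD mice. It reached a mean of 1 TPM only through FMD replicate 1, and FMD replicates 2 and 4 lay within the IF range. The FMD vs FED value of 0.95 (adjusted p = 0.0374) was not called after scaling (0.69, adjusted p = 0.126).

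Of 38 regulators of these enzymes, 9 were tested, with 2 called higher and 1 lower in IF vs FED (scaled 0 and 1), 4 and 1 in FMD vs FED (1 and 1) and 2 and 1 in FMD vs IF (1 and 1). Beside these counts, the shares of all genes as deposited were 10.3% and 1.59%, 35.5% and 1.59%, and 4.67% and 0.472%. Ahr, the receptor that binds the GCGTG core, rose by 0.71 in IF (adjusted p = 0.0051; scaled 0.47, adjusted p = 0.0706) and was lower in FMD than in IF by -0.61 (adjusted p = 0.0311). Cebpb, a hepatic transcription factor, rose by 1.57 in FMD vs FED and 1.13 in FMD vs IF. Srebf1, which drives lipid synthesis, fell by 0.95 (IF vs FED, adjusted p = 0.048) and fell by 1.34 (FMD vs FED, adjusted p = 0.00434), and both falls were also called after scaling. The clock factor Dbp rose by 1.17 in IF and 1.30 in FMD, neither called after scaling (0.91, adjusted p = 0.191, and 0.78, adjusted p = 0.222). Rxrb, a partner of nuclear receptors, rose by 0.81 in FMD vs FED and 0.60 in FMD vs IF and Keap1, an inhibitor of NRF2, by 0.69 in FMD vs FED, with none of these called after scaling (0.28, 0.34 and 0.16).

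Lists of known targets met the members only in part. Of 26 target enzymes of the receptors CAR and PXR, 3 were tested (Gstm1, Gstm2 and Gstt1), with 0 called in IF vs FED and 1, Gstm2, lower in FMD vs FED. Of 17 NRF2 target enzymes, 4 were tested (Ces1g, Gstm1, Gstm2 and Ugt1a6a) with the same single call, and of 5 AHR target enzymes 1 was tested (Ugt1a6a) with 0 called. By zone of the liver lobule, 2 of 14 pericentral enzymes were tested with 1 lower in FMD vs FED (Gstm2), and 1 of 2 periportal enzymes, Cyp2f2, was lower in both diets. In FMD vs IF none of these list members was called as deposited, and Gstm2 was called lower after scaling. These lists overlap the 13 members by design, so they add no separate measurement. None of the 19 fatty acid omega hydroxylases, 13 steroid, retinoid and vitamin D P450s, 7 male-biased and 17 female-biased enzymes was in the table.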

How the data were processed

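Liver RNA of 3 mice per group (FED, IF and FMD) was prepared by the authors as strand-specific, oligo-dT enriched mRNA libraries and sequenced on DNBSEQ. The deposited values are TPM per gene, which the authors had normalised for transcript length and total abundance, and groups were taken from the sample labels. The submitters' processing notes name DESeq2 and the mm39 build. The aligner, annotation and tool versions are not given in the sources used here. The listed TPM summed to 26.3 to 43.0% of the whole TPM of a library, so the table holds part of each library, the depth is unknown and no counting interval is given.

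TPM was analysed as log2(TPM + 1), a scale that understates the change of low genes, for 4665 genes whose mean TPM was 1 or more. All 9 libraries entered 1 fit with limma 3.58.1 in R 4.3.3 (moderated test with a mean-variance trend, two-sided), and p-values were adjusted over all genes tested by the Benjamini-Hochberg method. A call needed an adjusted p under 0.05 together with a change of more than 1.5-fold. SD values are over the mice of a group, and intervals are 95% intervals from limma. The fitting was tested on simulated data. Promoter windows were RefSeq entries on GRCm38.p6, matched by NCBI gene ID, and near-identical sequence was sought as shared windows of 50 bases in the GENCODE transcripts of GRCm38. Python 3.11.15 was used for tables and figures, with pandas 2.3.3, numpy 2.4.6 and matplotlib 3.10.9.

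The members and the gene lists were chosen with earlier results of these data known. The naming rule took, per family and comparison, up to 3 rises and 3 falls of largest size among called members whose groups did not overlap, up to 5 called members of smallest adjusted p, the 2 members of highest mean per family, members of the bile acid and omega hydroxylase lists, and up to 5 members of largest scaled change among those called after scaling. Genes of other lists were named where called and among the 3 of smallest adjusted p, except 1 gene that is not reported here. The rule selected 12 members, and Gstm5 is described besides. As alternatives, the pseudocount, the filter on low genes, the scaling (median ratio, equal sums, quantiles), separate fits for each pair of groups, the mean-variance trend, a block for replicate number and the limits were varied, and each library was left out in turn. Scaling combined with a library left out, or with the block, was added after seeing the data.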

Additional observations from a re-analysis of the deposited data

Results flagged for a closer look

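Ces2e and Sult5a1 were the members for which the effects of the diets differed from each other by the direct test of FMD vs IF. Ces2e was -0.86 on the log2 scale and was called lower in FMD vs FED and not in IF vs FED, with all 3 FMD livers below all 3 IF livers. Sult5a1 was -0.78, with both diets below FED and all 3 FMD livers below all 3 IF livers. With TPM as deposited, neither was called when any 1 of the IF libraries was left out.

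Cyp1b1 (NCBI gene 13078), a P450 of estrogens and polycyclic hydrocarbons, matched the family names and was under the mean of 1 TPM, so it took no part in the tests. It was listed at a mean of 0.103 ± 0.0451 TPM in FED (SD, n = 3), 0.30 ± 0.122 in IF and 0.42 ± 0.161 in FMD. The FED livers reached at most 0.15 TPM and the diet livers at least 0.22 TPM, so the groups did not overlap, at values where the depth is unknown.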

How the results depend on the processing

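The number of called members was 5 and 7 against FED, for IF and for FMD, and 2 for FMD vs IF, in this order below, and it changed with some settings. With 1 library left out the counts were 4 to 6, 6 to 7 and 0 to 7. Equal table sums left 3 calls for IF vs FED. Quantile normalisation left 3 there and 4 for FMD vs FED. In FMD vs IF, 1 was called without the filter and 0 with 1 fit per pair of groups or at an adjusted p under 0.01. With scaling and 1 library left out, the counts ran from 1 to 4 in IF vs FED (1, 2 or 3 where they moved), from 4 to 8 in FMD vs FED (4 where they moved) and from 0 to 6 in FMD vs IF (0, 1 or 6 where they moved). The largest count in FMD vs IF, with or without scaling, came without FMD replicate 4.

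Deviations of same-numbered libraries from their group means correlated between 0.003 and 0.177 over genes. Those of differently numbered libraries correlated between -0.202 and 0.211, and not every library correlated best with its own number. With 3 libraries per group, these values cannot decide whether the numbers pair the samples. A replicate block gave 5, 7 and 6 called members, and with scaling 3, 8 and 5. Number 4 occurs only in FMD, so the block absorbs FMD replicate 4. The FMD values under the block therefore rest on the other FMD libraries. Leaving out FMD replicate 4 without a block gave 7 called members in FMD vs IF. The block counts for FMD are thus no separate check of pairing. Under the block Gstm1 and Ugt1a6a in FMD vs FED were -0.12 and -0.043.

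No member changed sign in any setting in a comparison where it was called. Where not called, some members turned negative under median ratio scaling, equal table sums and quantile normalisation, in that order, as follows. In IF vs FED, Gstm1 was -0.23, -0.23 and -0.12, Ces1f -0.10, -0.11 and -0.14, Ces2e -0.21, -0.22 and -0.19, and Ugt1a6a -0.11, -0.12 and -0.10. In FMD vs FED, Gstm1 was -0.54, -0.43 and -0.35, Gstm5 -0.34, -0.24 and -0.38, and Ugt1a6a -0.41, -0.30 and -0.36. In FMD vs IF, Gsto1 was -0.26, -0.14 and -0.12, and Fmo1 was -0.056 under scaling. By construction, scaling sets the median change over genes close to 0.

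With 1 library left out, sign changes were again in comparisons where the member was not called. In IF vs FED, Gstm1 ranged from -0.016 to 0.13, Gstm2 from -0.38 to 0.0497 and Ces2e from -0.0197 to 0.13. In FMD vs FED, Ces1g ranged from -0.51 to 0.31, Gstm1 from -0.14 to 0.30, Gstt1 from -0.36 to 0.076 and Ugt1a6a from -0.063 to 0.30. In FMD vs IF, Cyp2f2 ranged from -0.22 to 0.065, Gstm1 from -0.20 to 0.24, Gsto1 from -0.12 to 0.12 and Ugt1a6a from -0.23 to 0.13. Where a call or a sign changed, the cause was not tested. The depth is unknown, which limits values near 1 TPM such as those of Cyp46a1.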
